A study of Rattus norvegicus with 6 samples.

Results

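ISG15 is a small ubiquitin-like protein, and 9 interferon-stimulated genes connected with it or with ADP-ribosylation in the interferon response were followed here: Isg15, Uba7, Herc6, Usp18, Parp9, Dtx3l, Parp14, Isg20 and Xaf1. They were chosen by symbol from the 32623 genes of the deposited table, where each symbol has 1 row. All 9 passed the filter on low values (a mean of at least 1 FPKM, sequenced fragments adjusted for the depth of the library and the length of the transcript), as did 13105 genes in all. The libraries are from ventricular myocardial cells of Sprague-Dawley rats at postnatal day 1-3, cultured as a single isolate pooled from several animals. In the siNC group (3 libraries) cells received a control small interfering RNA, and in the siMettl3 group (3 libraries) one against Mettl3, which encodes the catalytic subunit of the N6-methyladenosine RNA methyltransferase. Both groups had 24 h of the small interfering RNA followed by 6 h of LPS, the bacterial endotoxin detected by Toll-like receptor 4. Cells without LPS were not analysed here, so the values are levels under LPS and not responses to it. Since all cells came from one isolate, p-values measure the spread between these libraries, which may be technical.

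Interferons act through receptors that activate transcription factors, among them STAT2 with IRF9, which bind the interferon-stimulated response element (ISRE) in promoters and switch on a large antiviral programme. ISG15 is conjugated to other proteins by a cascade in which UBA7 is the activating enzyme, UBE2L6 the conjugating enzyme and HERC6 the main ligase of rodents, while USP18 removes ISG15 and also restrains signalling at the interferon receptor. PARP9 and the ubiquitin ligase DTX3L form a complex, and PARP14 is a mono-ADP-ribosyltransferase with macrodomains. ISG20 is an exonuclease that degrades RNA, and XAF1 is an antagonist of the caspase inhibitor XIAP.

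Promoter sequences were available for 7 of the 9 genes in the RefSeq set for build GRCr8, as windows of 300 bases running from 250 bases before the start that the set uses to 50 after it. That start is the outer end of the annotated gene for Uba7, Dtx3l, Parp14 and Xaf1, and lies 50 bases inside the gene for Herc6, 1398 for Parp9 and 5330 for Isg20. Both strands were searched for the ISRE core GAAANNGAAA. It was present in the windows of Isg20, Dtx3l, Parp14 and Xaf1, 4 of the 7, and in 3.92% of all 33469 windows of that length. Among the 35 windows of other interferon-stimulated genes listed below, 26 had it. The 4 windows are printed because they hold the binding motif of the interferon pathway, with the match in capitals, 5′ to 3′ on the gene's strand.
Isg20, GRCr8 chr1:142239809-142240108, plus strand: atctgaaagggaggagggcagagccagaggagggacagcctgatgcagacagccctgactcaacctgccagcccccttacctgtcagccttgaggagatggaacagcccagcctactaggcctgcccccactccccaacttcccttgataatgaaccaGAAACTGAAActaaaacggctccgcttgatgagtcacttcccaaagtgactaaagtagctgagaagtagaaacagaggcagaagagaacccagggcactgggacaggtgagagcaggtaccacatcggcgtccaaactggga
Dtx3l, GRCr8 chr11:78319975-78320274, plus strand: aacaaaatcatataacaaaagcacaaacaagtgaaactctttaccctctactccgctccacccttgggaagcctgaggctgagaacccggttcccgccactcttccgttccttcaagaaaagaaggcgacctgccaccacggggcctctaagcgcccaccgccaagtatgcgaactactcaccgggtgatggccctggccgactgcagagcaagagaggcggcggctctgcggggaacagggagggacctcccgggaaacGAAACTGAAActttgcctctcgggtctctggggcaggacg
Parp14, GRCr8 chr11:78407884-78408183, plus strand: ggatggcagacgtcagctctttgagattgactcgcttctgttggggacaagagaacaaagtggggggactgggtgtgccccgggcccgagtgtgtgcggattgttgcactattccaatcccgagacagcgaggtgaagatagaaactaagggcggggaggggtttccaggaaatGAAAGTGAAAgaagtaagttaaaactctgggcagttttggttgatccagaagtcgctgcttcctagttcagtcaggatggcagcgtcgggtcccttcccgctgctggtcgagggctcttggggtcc
Xaf1, GRCr8 chr10:57415685-57415984, plus strand: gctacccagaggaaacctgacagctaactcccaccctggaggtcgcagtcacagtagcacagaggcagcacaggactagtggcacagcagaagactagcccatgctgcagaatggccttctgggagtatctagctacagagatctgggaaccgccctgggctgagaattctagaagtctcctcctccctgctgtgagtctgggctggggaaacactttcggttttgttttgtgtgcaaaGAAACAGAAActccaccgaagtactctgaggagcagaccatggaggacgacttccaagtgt

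The match in Isg20 and in Dtx3l reads GAAACTGAAA, that in Parp14 GAAAGTGAAA and that in Xaf1 GAAACAGAAA. It lies at bases -92 to -83 from the start used in Isg20, -76 to -67 in Parp14 and -11 to -2 in Xaf1, and in Dtx3l at bases 11 to 20 after the start. The gamma-activated sequence of interferon-responsive promoters, TTCNNNGAA, matched in 1 of the 7 windows, that of Parp14, at bases -87 to -79 and so without overlap with the ISRE core. It matched in 8.87% of all windows. The windows of Herc6, Uba7 and Parp9 held neither motif, which says only that these letters are not in these stretches. RefSeq gives Parp9 as chr11:78286282-78320409 on the minus strand, so the Dtx3l window lies within the annotated Parp9 gene and 3 of the genes are neighbours on chromosome 11. In the coordinates of the deposited table, whose build is not stated, 1128 bases separate Parp9 (minus strand, 67724076 to 67756799) from Dtx3l (plus strand, 67757928 to 67767622), and Parp14 (plus strand, 68105369 to 68137535) begins 337746 bases beyond Dtx3l. In RefSeq for GRCr8 that gap is shorter, with Dtx3l ending at 78329837 and Parp14 starting at 78408134. The table places Isg15 on the minus strand of chromosome 5 (173624310 to 173626248), Herc6 on the minus strand of chromosome 4 (88607518 to 88649216) and Usp18 on the plus strand of the same chromosome (153805993 to 153834430). On the plus strand lie Uba7 on chromosome 8 (116754178 to 116764126), Xaf1 on chromosome 10 (58860940 to 58873674) and Isg20 on chromosome 1 (140601791 to 140608946). Uba7 overlaps Inka1 on the opposite strand, which had at most 43 counts in a library against 9321 to 14548 for Uba7.

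Total counts per library were 71202469 to 76668751. Mettl3 checks the labels: with siNC it was at 16.9 ± 1.47 FPKM and with siMettl3 at 10.3 ± 0.355 FPKM (SD, n = 3; edgeR adjusted p = 0.00293). The 13 cardiomyocyte markers found in the table all had counts in every library, and 12 of them were not called by edgeR (median log2 fold change of the 13, -0.07). The other, Myh7, was called lower (934 and 782 FPKM on average, edgeR adjusted p = 0.0204), and DESeq2 called 3 of the 13 lower. The summed level of the 13 markers was 21553 to 24463 FPKM in siNC and 18953 to 21875 FPKM in siMettl3. This difference in the sums lay in Nppa, the atrial natriuretic peptide gene (11628 and 9005 FPKM on average, edgeR adjusted p = 0.0542). Without it the sums, computed after the full sums had been seen, were 11169 to 11880 and 11147 to 12269 FPKM. The siMettl3 mean was then 101% of the siNC mean, and 97.6% with Tnnt2 left out as well. Over all tested genes 864 were lower and 444 higher in siMettl3 by edgeR at an adjusted p under 0.05. This balance depended on the scaling: limma on log2(FPKM + 1) called 576 lower and 856 higher, and edgeR scaled to library totals alone called 630 lower and 1026 higher.

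Usp18, Parp14, Herc6, Uba7, Parp9 and Xaf1 were lower in every library with Mettl3 silenced than in any control library, at 67.1% to 79.7% of the siNC mean in FPKM. The groups of Isg15, Dtx3l and the exonuclease gene Isg20 overlapped. By edgeR's quasi-likelihood test 5 of the 9 fell (all of these but Xaf1) and 0 rose, where 6.59% of all tested genes were called lower and 3.39% higher. Groups separated in this direction for 6 of the 9, against 11.5% of all tested genes. The median log2 fold change of the 9 was -0.43, beside 0.0025 over all tested genes, and all 9 values were below 0 in each of the 15 fits made. limma on log2(FPKM + 1) called 4 of the 9 lower (4.4% of all genes, with 6.53% higher) and left out Herc6. DESeq2 called 7 lower (10.6% of all genes, with 7.71% higher), adding Dtx3l and Xaf1. The genes were chosen with earlier results of these data known, so their count carries no test of its own.

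**Figure D1:**
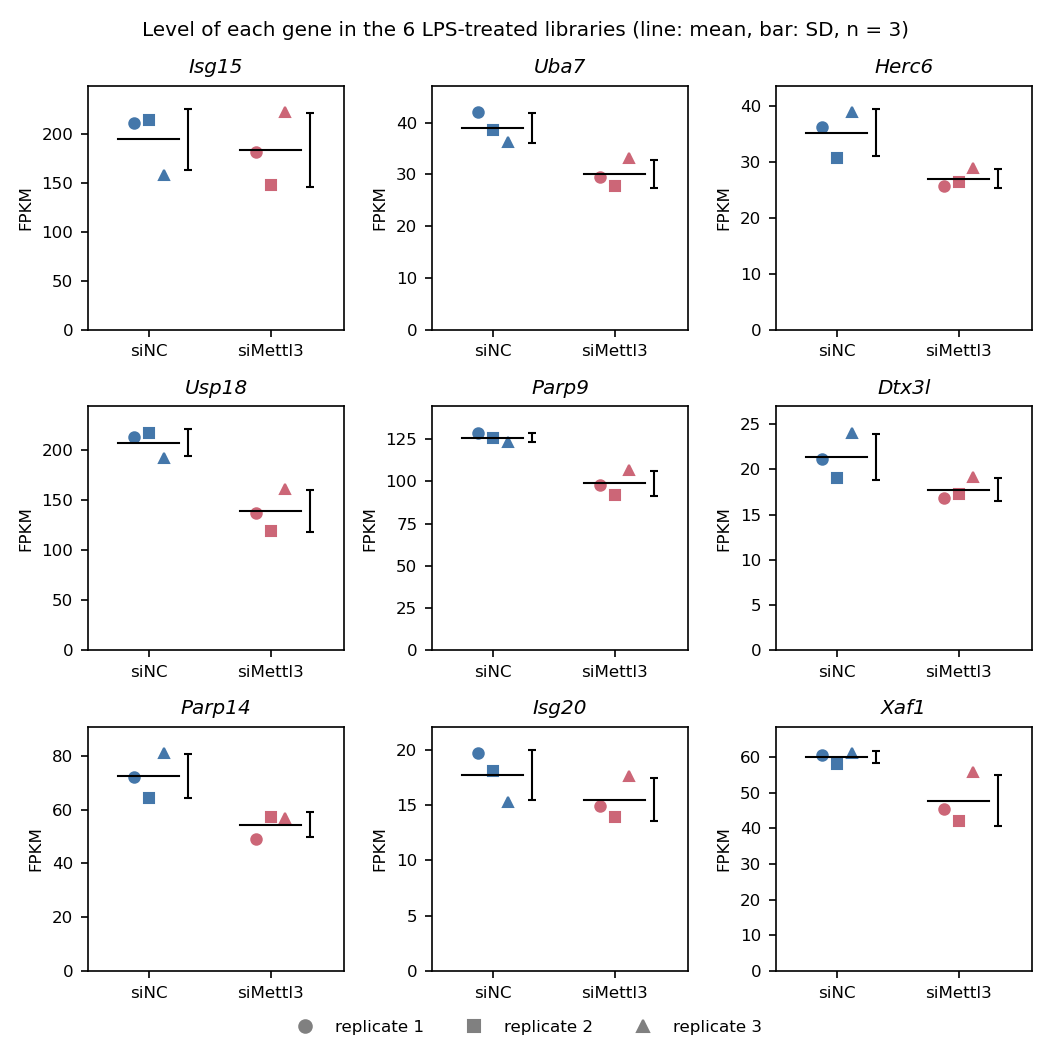
FPKM (vertical axis, from 0) of each of the 9 genes in the 3 siNC and 3 siMettl3 libraries, with a symbol per replicate, a line at the mean and a bar for the SD (n = 3). The groups are separate for Uba7, Herc6, Usp18, Parp9, Parp14 and Xaf1 and overlap for Isg15, Dtx3l and Isg20.

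In the conjugation cascade, the transcript of the modifier itself did not pass the test, those of the activating enzyme and the ligase fell, and that of the conjugating enzyme Ube2l6 was not lower. Isg15 measured 211, 214 and 158 FPKM in siNC replicates 1, 2 and 3 and 181, 147 and 222 FPKM in siMettl3 replicates 1, 2 and 3. Its highest value of the 6 was in a siMettl3 library, and the log2 fold change was -0.15 (SE 0.17, edgeR adjusted p = 0.593).

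Uba7, the activating enzyme of ISG15, measured 42.0, 38.5 and 36.2 FPKM in siNC and 29.5, 27.7 and 33.1 FPKM in siMettl3. All siNC values were above all siMettl3 values, with a log2 fold change of -0.45 (SE 0.0837, edgeR adjusted p = 0.0216). Herc6, the ligase, measured 36.2, 30.7 and 38.9 FPKM in siNC and 25.6, 26.4 and 28.9 FPKM in siMettl3. The groups were again separate, by a narrow margin between siNC replicate 2 and siMettl3 replicate 3, with a log2 fold change of -0.46 (SE 0.0943, edgeR adjusted p = 0.0284, limma adjusted p = 0.0522).

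Usp18, the ISG15 protease and brake of the interferon receptor, had the largest difference of the 9. It measured 212, 217 and 192 FPKM in siNC and 137, 119 and 161 FPKM in siMettl3, so that siMettl3 cells had 67.1% of the siNC mean. The log2 fold change was -0.65 (SE 0.112, edgeR adjusted p = 0.0163). The ratio of Usp18 to Isg15 in FPKM was 1.01, 1.02 and 1.21 in siNC against 0.754, 0.809 and 0.725 in siMettl3. Each siMettl3 library thus had less Usp18 for its Isg15 than any siNC library, with p = 0.10 in a 2-sided exact permutation test, the smallest p that 3 against 3 libraries allow. This ratio was examined after its values had been seen.

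Of the other 15 genes listed for the ISG15 pathway, all tested, 3 fell (Trim25, Stat2 and Herc3) and 0 rose, with a median log2 fold change of 0.064. The ubiquitin and ISG15 ligase gene Trim25 went from 60.0 ± 8.56 to 43.0 ± 3.32 FPKM (SD, n = 3), a log2 fold change of -0.56. Ube2l6, the conjugating enzyme between UBA7 and HERC6, lay on the other side: 43.6, 44.6 and 38.8 FPKM in siNC and 58.2, 48.4 and 59.9 FPKM in siMettl3. All siMettl3 values of Ube2l6 were above all siNC values, with a log2 fold change of 0.32 that edgeR did not call (adjusted p = 0.0856). DESeq2 (adjusted p = 0.0225) and limma on log2(FPKM + 1) (adjusted p = 0.04997) called it higher. The limma call was lost on log2(FPKM + 0.1), where 0 of the list were higher. Over all tested genes limma on log2(FPKM + 1) had a median log2 fold change of 0.067, and groups separated in either direction for 37.9%. The ratio of Uba7 to Ube2l6, also examined after its values had been seen, was 0.963, 0.864 and 0.934 in siNC and 0.507, 0.572 and 0.552 in siMettl3. Since Uba7 separated downward and Ube2l6 upward, this ratio had to separate. Its 2-sided exact permutation p of 0.10, the smallest possible, was thereby fixed and adds no support. The proteases Usp5, Usp14, Usp16, Usp21 and Usp24, some of which act on ISG15 as well as on ubiquitin, had log2 fold changes of 0.36, 0.047, 0.12, 0.15 and 0.24, and 0 of the 5 passed.

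**Figure D2:**
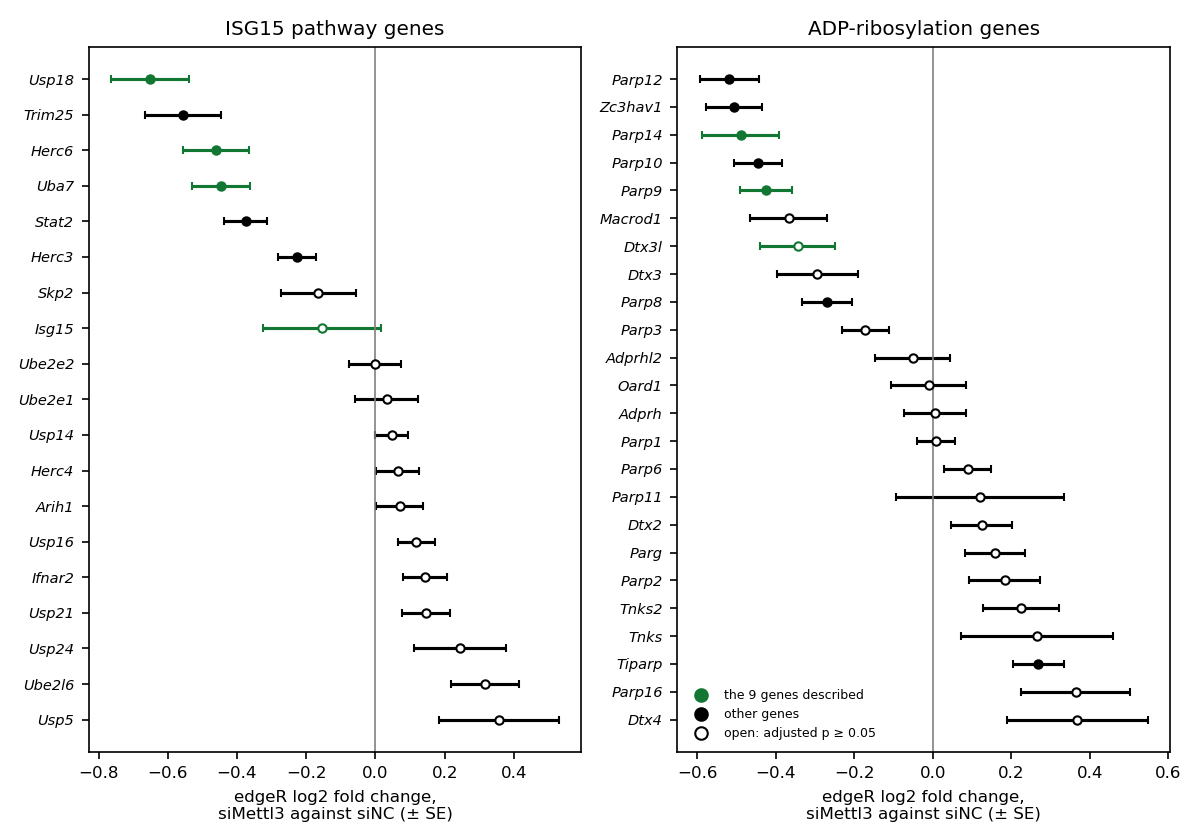
edgeR log2 fold change of siMettl3 against siNC (horizontal axis, bar for the SE) for the tested genes of the ISG15 pathway list and of the ADP-ribosylation list, the 9 genes described in green and open circles for an adjusted p of at least 0.05. Usp18, Trim25, Herc6 and Uba7 lie at the low end of the first list and Ube2l6 and Usp5 at its high end, and Parp12, Zc3hav1, Parp14, Parp10 and Parp9 lie at the low end of the second.

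The PARP9 and DTX3L pair differed in level more than in response. Parp9 measured 129, 126 and 123 FPKM in siNC and 97.8, 91.7 and 107 FPKM in siMettl3. The siNC libraries of Parp9 had an SD of 2.82 FPKM, and the groups were separate, with a log2 fold change of -0.43 (SE 0.0667, edgeR adjusted p = 0.0122). Dtx3l, at 21.1, 19.0 and 24.0 FPKM in siNC and 16.8, 17.2 and 19.2 FPKM in siMettl3, overlapped between groups at siNC replicate 2 and siMettl3 replicate 3. Its log2 fold change was -0.34 (SE 0.0964, edgeR adjusted p = 0.0679), and DESeq2 called it lower (adjusted p = 0.0127). The ratio of Dtx3l to Parp9 was 0.164, 0.151 and 0.195 in siNC and 0.171, 0.188 and 0.180 in siMettl3, which overlap, with a 2-sided exact permutation p = 0.50 where 0.10 is the smallest possible. The log2 difference of the Dtx3l to Parp9 ratio was 0.088, and it went from 0.00642 without siNC replicate 2 to 0.19 without siNC replicate 3.

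Parp14 measured 72.1, 64.4 and 81.0 FPKM in siNC and 49.0, 57.3 and 56.8 FPKM in siMettl3. Its groups were separate, with a log2 fold change of -0.49 (SE 0.0989, edgeR adjusted p = 0.0275). Among the other 21 tested genes of ADP-ribosylation, 4 fell and 1 rose. The 3 clearest falls were those of interferon-inducible members of the PARP family: Parp12 went from 74.7 ± 2.24 to 54.9 ± 5.34 FPKM (log2 fold change -0.52), Zc3hav1, the zinc-finger antiviral protein also known as PARP13, from 65.4 ± 4.29 to 48.5 ± 2.90 FPKM (-0.51) and Parp10 from 26.5 ± 0.538 to 20.5 ± 1.31 FPKM (-0.45; SD, n = 3). These 3 kept an edgeR adjusted p of at most 0.0496 whichever library was left out. Parp8 also fell (-0.27), and Tiparp, a target of the aryl hydrocarbon receptor, rose (0.27).

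Genes of the family known for DNA repair and telomeres did not pass. Parp1 measured 43.3 ± 1.19 and 45.9 ± 0.987 FPKM, with a log2 fold change of 0.0079, Parp2 had 0.18, Parp3 -0.17, Tnks 0.27 and Tnks2 0.23. The median log2 fold change of the 21 was 0.0079. The enzymes that remove ADP-ribose did not pass either, with log2 fold changes of 0.16 for Parg, 0.0058 for Adprh, -0.051 for Adprhl2, -0.010 for Oard1 and -0.37 for Macrod1 (edgeR adjusted p = 0.0598).

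Xaf1 measured 60.7, 58.0 and 61.1 FPKM in siNC and 45.5, 42.0 and 55.9 FPKM in siMettl3. The groups were separate but siMettl3 replicate 3 lay close to the siNC libraries, and the log2 fold change of -0.40 (SE 0.107) had an edgeR adjusted p = 0.0601. Without that library Xaf1 was called lower (-0.53, edgeR adjusted p = 0.0194). This was 1 of 6 fits with a library left out, and in the others Xaf1 was not called (0.106 to 0.174). Isg20 measured 19.7, 18.1 and 15.2 FPKM in siNC and 14.9, 13.9 and 17.6 FPKM in siMettl3, with a log2 fold change of -0.27 (SE 0.131, edgeR adjusted p = 0.242). Both siNC replicate 3 and siMettl3 replicate 3 of Isg20 lay within the range of the other group.

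Among 19 other tested genes of apoptosis control and of RNA exonucleases, 3 fell and 1 rose. Samhd1, a nucleotide hydrolase with antiviral action, went from 22.8 ± 2.5 to 15.4 ± 2.15 FPKM (log2 fold change -0.64; SD, n = 3). The exonuclease gene Eri1 fell by 0.41 on the log2 scale, while Rexo1 rose (0.24). Xiap, the partner of XAF1, measured 8.53 ± 2.19 and 10.0 ± 1.78 FPKM (edgeR adjusted p = 0.649).

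**Figure D3:**
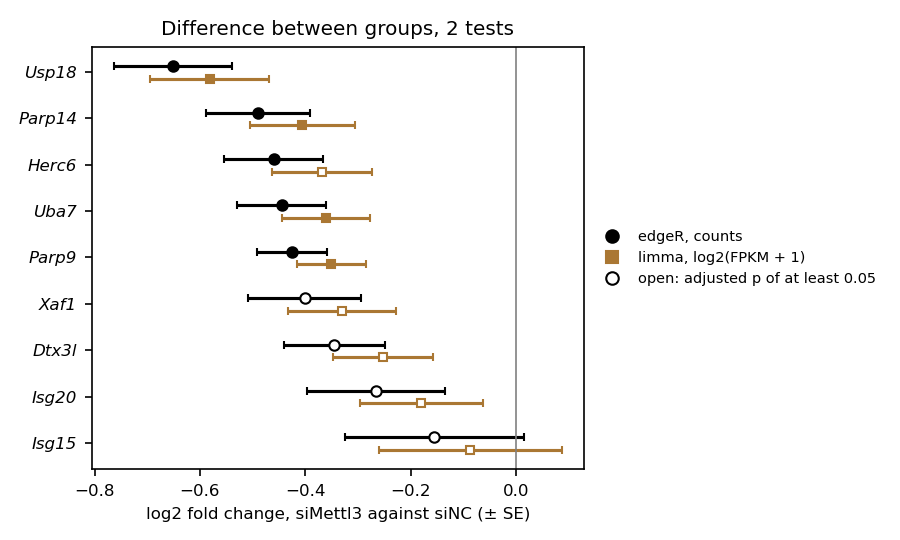
Log2 fold change of siMettl3 against siNC (horizontal axis, bar for the SE) of the 9 genes by edgeR on counts (circles) and by limma on log2(FPKM + 1) (squares), filled where the adjusted p is under 0.05. All 18 points lie below 0, from Usp18 at -0.65 to Isg15 at -0.087, and the limma values are closer to 0.

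The calls depended on single libraries. When siNC replicate 1 or siMettl3 replicate 1 was left out, edgeR called 0 of the 9 genes (7 of 9 at an unadjusted p under 0.05 in each fit). Leaving out replicate 2 gave 3 calls for the siNC library and 2 for the siMettl3 library, and leaving out replicate 3 gave 5 and 4. With replicate 1 of siNC and then of siMettl3 left out, the edgeR adjusted p was 0.0723 and 0.0678 for Usp18, 0.0642 and 0.0594 for Parp9, 0.0858 and 0.0834 for Uba7, 0.0902 and 0.0933 for Parp14 and 0.102 and 0.104 for Herc6. Without siNC replicate 2, Usp18 (0.0534) and Uba7 (0.0609) were lost as well. Without siMettl3 replicate 2, Herc6 (0.0794), Parp14 (0.0536) and Uba7 (0.0515) were lost, and without siMettl3 replicate 3, Herc6 (0.0529) and Parp14 (0.0636). The fold changes moved less: over these 6 fits that of Usp18 lay between -0.77 and -0.55 and that of Parp9 between -0.49 and -0.37. That of Isg15 lay between -0.31 and -0.016.

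Several calls in the related lists were lost in the same way. Trim25 had an edgeR adjusted p of 0.0738, 0.0896, 0.0520 and 0.0672 without siNC replicate 1 and siMettl3 replicates 1, 2 and 3. Stat2 had 0.0715 and 0.0693 without siNC replicate 1 and siMettl3 replicate 1, and Samhd1 0.0780, 0.0839 and 0.0614 without siNC replicate 1 and siMettl3 replicates 1 and 2. Herc3 (0.0512 to 0.147), Parp8 (0.0689 to 0.141) and Rexo1 (0.0872 to 0.172) were lost in all 6 fits. Tiparp stayed past the threshold only without siNC replicate 3 (0.0488, otherwise 0.0987 to 0.179) and Eri1 only without siMettl3 replicate 3 (0.0415, otherwise 0.0651 to 0.102). Ube2l6 was called higher only without siMettl3 replicate 2 (0.0364, otherwise 0.139 to 0.222).

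Among the siNC libraries the 9 genes did not all vary together, and replicate 3 divided them. Relative to the mean of the siNC group in log2 CPM (counts scaled to library size), this library was low for Isg15 (-0.28), Isg20 (-0.20), Usp18 (-0.10) and Uba7 (-0.096), near the mean for Parp9 (-0.027) and Xaf1 (0.033), and high for Dtx3l (0.18), Parp14 (0.17) and Herc6 (0.15). In siNC replicate 2 the last 3 were low instead, at -0.16, -0.16 and -0.19. In the siMettl3 libraries replicate 3 had the highest FPKM for 8 of the 9 genes, Parp14 being the exception. Replicate 2 had the lowest for 6. The same 3 genes set apart in siNC, Dtx3l, Parp14 and Herc6, were lowest in siMettl3 replicate 1 instead (-0.071, -0.14 and -0.066 in log2 CPM).

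Transcript length moved with part of this division. Counts per FPKM, which grow with the length of a transcript, were 100 for Isg15 and 66.5 for Isg20, in the lowest quartile of all tested genes, and 273 for Herc6, 374 for Dtx3l and 546 for Parp14, in the highest. Over all tested genes, siNC replicate 3 against the mean of siNC replicates 1 and 2 had a median log2 ratio of FPKM + 1 of -0.12 in the lowest quartile and 0.098 in the highest. For the same ratio Isg15 had -0.42, Isg20 -0.29, Herc6 0.21, Dtx3l 0.25 and Parp14 0.24. Uba7, also in the highest quartile (334), had -0.15 and Xaf1, in the lowest (62.3), had 0.041, so these 2 genes went against the trend. Between the groups the median log2 fold change rose from -0.084 in the lowest quartile to 0.089 in the highest. The part of length in the values of the 9 genes was not tested.

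**Figure D4:**
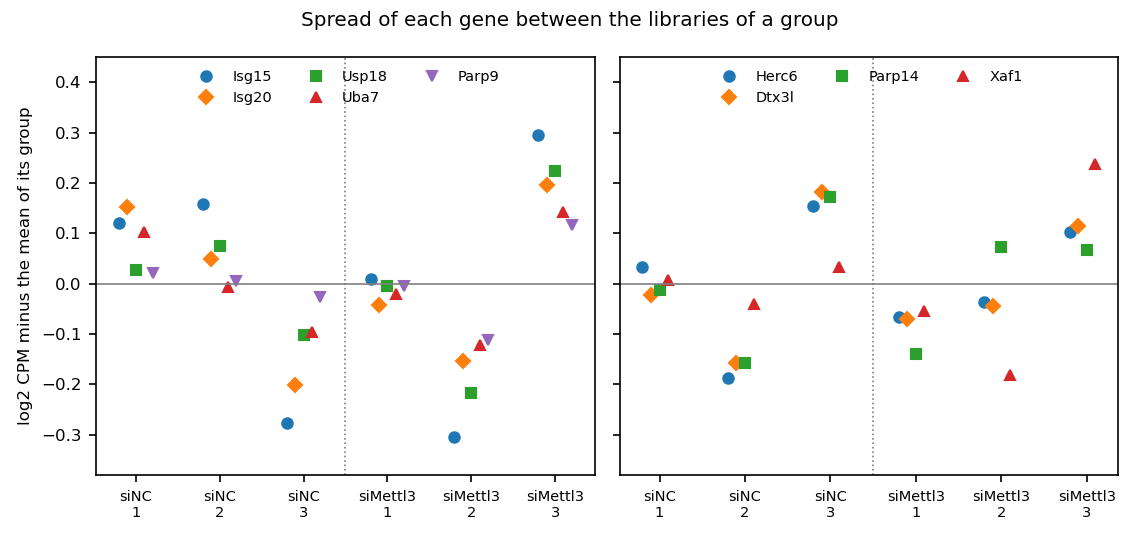
Difference of each library's log2 CPM from the mean of its own group (vertical axis) for the 9 genes, siNC libraries to the left of the dotted line and siMettl3 libraries to the right. The panels divide the genes by the sign and size of siNC replicate 3, a division made after the values had been seen: the left panel runs down to -0.28 there and the right panel up to 0.18.

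The order of the genes by level per length changed little between the groups. In siNC it ran Usp18 (207 ± 13.3 FPKM), Isg15 (194 ± 31.2), Parp9 (126 ± 2.82), Parp14 (72.5 ± 8.30), Xaf1 (59.95 ± 1.67), Uba7 (38.9 ± 2.91), Herc6 (35.3 ± 4.18), Dtx3l (21.4 ± 2.54) and Isg20 (17.7 ± 2.26; SD, n = 3). The libraries of Usp18 and Isg15, of Uba7 and Herc6, and of Dtx3l and Isg20 overlapped in that group. In siMettl3 it ran Isg15 (184 ± 37.4), Usp18 (139 ± 20.9), Parp9 (98.8 ± 7.56), Parp14 (54.4 ± 4.63), Xaf1 (47.8 ± 7.21), Uba7 (30.1 ± 2.75), Herc6 (27.0 ± 1.71), Dtx3l (17.7 ± 1.26) and Isg20 (15.5 ± 1.94), and the same pairs overlapped, as did Parp14 and Xaf1. The lowest of the 9, Isg20, was still above 65.1% of all tested genes and Isg15 above 97.2%.

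Calls among the upstream genes of type I interferon signalling went in both directions, and 15 genes were not called by edgeR. Of 20 tested genes 3 fell and 2 rose. Stat2 went from 126 ± 4.09 to 103 ± 6.50 FPKM (log2 fold change -0.37) and Irf7 from 176 ± 5.55 to 144 ± 11.9 FPKM (-0.37). The receptor chain Ifnar1 rose from 19.4 ± 0.881 to 24.2 ± 0.742 FPKM (0.24) and the feedback inhibitor Socs3 from 23.4 ± 3.06 to 36.7 ± 3.57 FPKM (0.58; SD, n = 3). Irf9, the partner of STAT2 in the ISRE-binding complex, measured 56.4 ± 1.40 and 53.5 ± 3.97 FPKM (edgeR adjusted p = 0.190). Irf1, Irf2, Irf5 and Irf8 (log2 fold changes -0.25, -0.21, -0.50 and -0.37) and Irf3 (0.049) did not pass by edgeR. The other receptor chain, Ifnar2 (0.14), did not pass either. Ifnb1, the gene of interferon beta, was below the filter at 0.279 ± 0.192 and 0.157 ± 0.0624 FPKM. Irf7 was lost without siNC replicates 1 and 2 and siMettl3 replicate 1 (edgeR adjusted p of 0.0932, 0.0735 and 0.0848). Stat2 was lost as given above. Ifnar1 and Socs3 stayed past the threshold only without siNC replicate 3 (0.0402 and 0.0267), with adjusted p of 0.0750 to 0.137 and 0.0538 to 0.0818 in the other fits.

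Other interferon-stimulated genes are the nearest comparison. Of 38 tested, 25 fell and 4 rose by edgeR, and their median log2 fold change was -0.49, beside -0.43 for the 9 genes. The antiviral genes Ifit2 (68.2 ± 4.62 to 33.1 ± 4.22 FPKM) and Mx1 (103 ± 3.08 to 49.3 ± 7.6 FPKM; SD, n = 3) had log2 fold changes of -1.12 and -1.13, further from 0 than that of Usp18. Cmpk2, a mitochondrial nucleotide kinase, had -1.02, and Rsad2, which makes a chain-terminating nucleotide, -0.67. The 4 that rose were Ifi27 (0.83), Bst2 (0.64), Lgals3bp (0.43) and Trim34 (0.38), the last 3 named after their values had been seen. Without siNC replicate 1 those that fell numbered 7 and without siMettl3 replicate 1 they numbered 9, and 1 rose in each, Ifi27. Over the 6 fits with a library left out, Ifi27 was called in 6, Lgals3bp and Trim34 in 3 and Bst2 in 1, the one without siNC replicate 3 (edgeR adjusted p = 0.0338, otherwise 0.0534 to 0.105). Lgals3bp missed the threshold when siNC replicate 1 (0.0784), siMettl3 replicate 1 (0.0650) or siMettl3 replicate 3 (0.0533) was absent, and Trim34 when siNC replicate 1 (0.0788), siNC replicate 2 (0.0564) or siMettl3 replicate 1 (0.0678) was. By Pearson correlation with the mean standardized profile of the 9 genes over the 6 libraries, the genes most like it were Sp110 (r = 0.999), Mx2 (0.996), Ptx3 (0.995), Icam1 (0.995) and Map2k1 (0.993), out of all genes with at least 5 FPKM. These values describe 6 libraries that share the group difference and carry no test. Sp110, a nuclear body protein, went from 103 ± 3.65 to 76.2 ± 9.72 FPKM (SD, n = 3), and like 8 of the 9 genes it was highest within its group in siMettl3 replicate 3.

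Most markers of macrophages and fibroblasts were also lower with Mettl3 silenced, while smooth muscle, pericyte and endothelial markers were mixed. Of 16 macrophage markers 9 were tested and 8 of them fell by edgeR (5 or 6 with a library left out), with a median log2 fold change of -0.77. Their summed level was 89.7 to 109 FPKM in siNC and 46.6 to 62.2 FPKM in siMettl3, and 0 of the 16 had a count of 0 in any library. Within siMettl3 the sum was highest in replicate 3 and lowest in replicate 2, the order that Isg15, Usp18, Uba7, Parp9, Xaf1 and Isg20 also had. Within siNC it was highest in replicate 2 and lowest in replicate 3, an order that only Isg15 and Usp18 of these genes shared. There Uba7, Parp9 and Isg20 were highest in replicate 1, and Xaf1 was highest in replicate 3. Of 12 fibroblast markers 9 fell, or 4 to 8 with a library left out (1966 to 2007 FPKM in sum in siNC, 1301 to 1371 FPKM in siMettl3). Of 10 smooth muscle and pericyte markers 4 fell, the contractile genes Acta2, Tagln, Cnn1 and Myh11, and the 3 first of these have the highest levels in the list's sum (3762 to 4256 and 2548 to 2753 FPKM). The groups of 4 others, Smtn, Cspg4, Kcnj8 and Abcc9, separated upward. Of these, edgeR called 0 and DESeq2 called Abcc9 higher (adjusted p = 0.0181). The median log2 fold change of the 10 was -0.19. Over all tested genes the groups separated in FPKM in either direction for 37.9% and downward for 11.5%, so most that separated did so upward. Endothelial markers, 6 of 9 tested, had 2 rises and 1 fall, with sums of 23.6 to 25.6 and 25.2 to 26.0 FPKM. In bulk libraries fewer cells of a type and less RNA per cell cannot be told apart, and the part of these cell types in the values of the 9 genes was not tested.

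**Figure D5:**
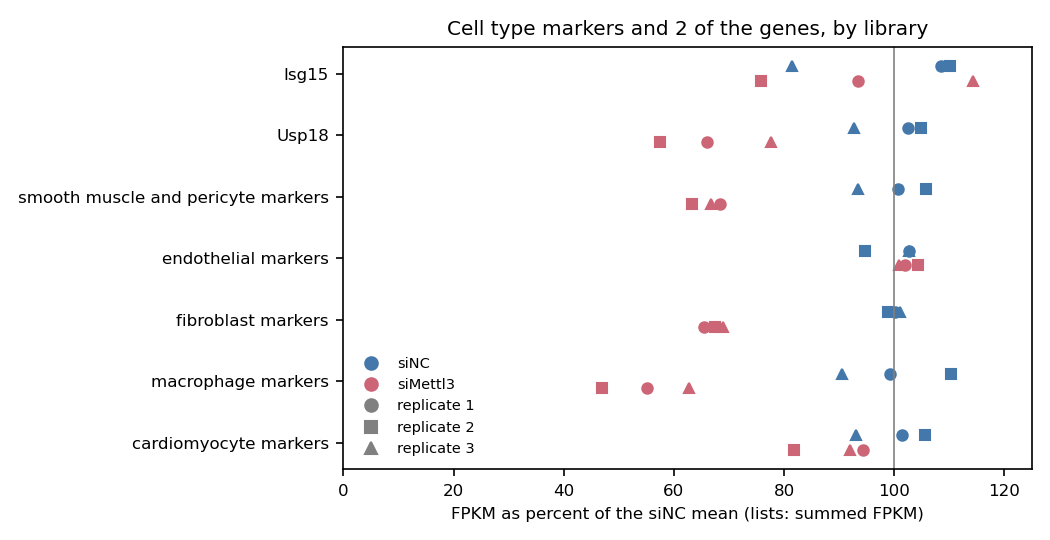
FPKM as a percent of the siNC mean (horizontal axis, from 0) in each library for the summed markers of 5 cell types and for Usp18 and Isg15, coloured by group, a symbol per replicate. The siMettl3 libraries have 47.0% to 62.7% for macrophage markers, 65.4% to 69.0% for fibroblast markers and 81.8% to 94.4% for cardiomyocyte markers, whose mean without Nppa was 101%.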

How the data were processed

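RNA was sequenced as 6 paired-end Illumina libraries, 3 per group. Per the file headers, the authors deposited FPKM and counts for each library and gene. A count of 0 is written as 0.0001 FPKM. Within a gene the deposited counts are proportional to FPKM (98.7% of values within 1% of a constant ratio, over 14527 genes with 20 or more counts per library), so they may derive from coverage rather than raw reads. The submitters' processing notes name Bowtie 0.12.2 and the build mm8 without a role. The counting method, its use of strand and the build of the rat table are not given in the sources used here.

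Counts were tested with edgeR 4.0.16 (trimmed-mean scaling, quasi-likelihood, 2-sided) in R 4.3.3 over 13105 genes, with Benjamini-Hochberg adjustment over all of them and a threshold of 0.05. Standard errors were taken as the fold change over the square root of F. Alternatives were limma 3.58.1 on log2(FPKM + 1) or log2(FPKM + 0.1) with an intensity trend, DESeq2 1.42.0, other scalings and filters, a replicate block and leaving out each library. The code was tested on simulated data. The genes and lists were chosen with earlier results of these data known. The naming rule took all 9 genes, Mettl3, a set of pathway genes whatever their values, up to 5 called genes of each pathway list, the leading markers of each cell type and the 5 genes most like the 9. At this depth counting error is small for the 9 genes, and the spread between libraries sets the precision. Of the symbols in the pathway lists, 5 were not found in the table. The values of 2 listed genes that are counted with their lists are not reported here.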

Additional observations from a re-analysis of the deposited data

How the results depend on the processing

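All 9 genes and Mettl3 were lower in siMettl3 in each of the 15 fits. By edgeR with median-ratio scaling, library totals, filterByExpr or no filter the same 5 of the 9 were called. Over all genes the number called was 2394 by DESeq2 against 1308, 344 to 1066 with a library left out and 64 with the replicate number as a block. With that block edgeR called 0 of the 9 genes (7 at an unadjusted p under 0.05), 0 ISG15 pathway genes, 0 ADP-ribosylation genes, 0 relatives of Xaf1 and Isg20, 0 signalling genes and 4 of the other interferon-stimulated genes. Same-numbered libraries of the groups correlated at 0.026, -0.21 and -0.024 in their deviations from the group means, and libraries did not all correlate best with their own number, so the numbers were not taken as pairs. With a library left out, the numbers called were 0 to 5 of the 9 genes, 0 to 2 ISG15 pathway genes against 3, 3 to 5 ADP-ribosylation genes against 5, 1 to 3 relatives against 4, 0 to 5 signalling genes against 5 and 8 to 27 other interferon-stimulated genes against 29. DESeq2 called 10 signalling genes, and without a filter edgeR called 3 ADP-ribosylation genes. The cause of these shifts was not tested. A fit with a library left out also has less power than one with all libraries.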
